A study of Homo sapiens with 6 samples.

Results

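The genes of cholesterol and fatty acid synthesis were examined in LoVo cells, an established line of human colon adenocarcinoma cells, with and without the kinase inhibitor DCC-2036. The set held 36 of the 19223 gene symbols in the deposited table. They were chosen by name for their place in the pathway, with earlier results of these data known. It was split into 5 regulators, 18 genes of the sterol branch and 13 genes of the fatty acid branch. Where a symbol had several transcripts, the one most abundant on average across all 6 libraries stood for it.

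Cells of the 3 Control libraries were grown in 6-well plates without the compound and carry a vehicle label. Cells of the 3 DCC-2036 libraries received 2.5 μM DCC-2036, and the labels give 48 h for both groups. The study's own text gives a shorter exposure at the same dose, so the time behind these values is uncertain. Both groups are the same single cell line in medium with fetal bovine serum, so an external source of cholesterol and fatty acids was present throughout. The labels do not say whether the replicates came from separate cultures, and p-values then measure only the spread between these samples, which may be technical. Numbers given per library are the deposited signal after the authors' adjustment for depth, called values below, and the reads behind them are unknown.

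Sterols and fatty acids are both built from acetyl-CoA, which ATP citrate lyase makes in the cytosol. SREBP transcription factors, encoded by SREBF1 and SREBF2, switch on the genes of both branches. SCAP carries them out of the endoplasmic reticulum when sterols are scarce, and the INSIG proteins hold SCAP back when sterols are plentiful. In tumour cells of epithelial origin the pathway supplies membrane lipids.

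Every one of the 36 genes passed the filter on low values, with values between 129.6 and 53680 in single libraries. After DCC-2036, 7 of the 36 were higher and 3 were lower at an adjusted p under 0.01 (limma across all 12725 genes tested, Benjamini-Hochberg adjustment). Over all genes tested, 19.2% were called higher and 22.7% lower, and 41.9% in either direction. The 7 higher calls make up 19.4% of the set, close to that background, and the 3 lower calls make up 8.33%. At an adjusted p under 0.05 instead, 20 of the 36 genes passed, beside 62.2% of all genes tested. The groups did not overlap for 27 of the 36 genes, or 75.0%, beside 71.1% of all genes tested. DCC-2036 was the higher group in 15 of these and the lower in 12, beside 32.9% and 38.1% of all genes tested. The median log2 fold change of the set was -0.0011, beside -0.092 for all genes tested, with 18 genes above 0 and 18 below. The set thus showed neither a shared rise nor a shared fall, and its members are described by role.

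**Figure D1:**
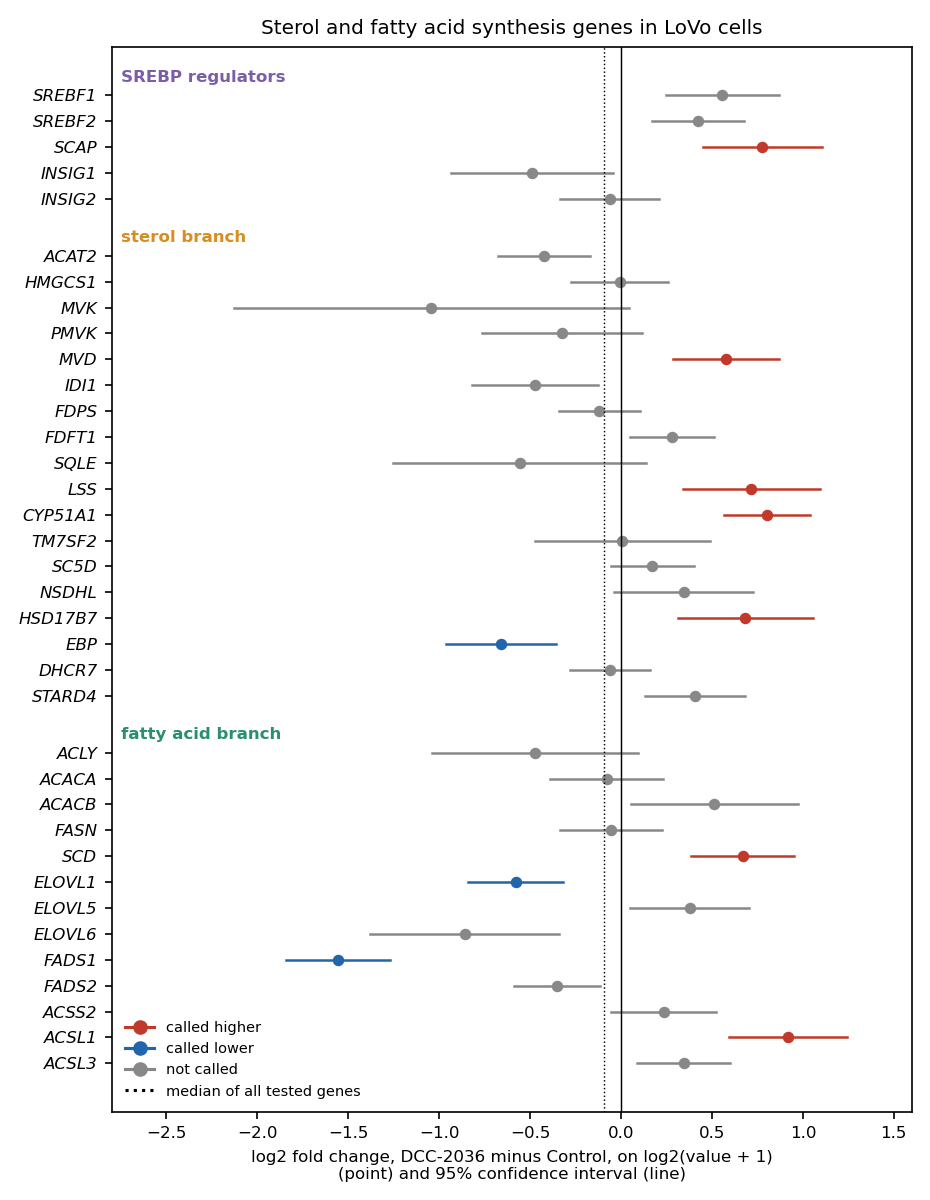
Log2 fold change (DCC-2036 minus Control, on the log2(value + 1) scale) with its 95% confidence interval from limma for each of the 36 genes, grouped as regulators, sterol branch and fatty acid branch, with called genes in red or blue and a dotted line at the median of all genes tested. FADS1 lies farthest below 0 at -1.56 and ACSL1 farthest above at 0.92, and called genes of both directions occur within each branch.

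Among the regulators, SCAP, the escort of the SREBPs, stood at 1987, 1903 and 2062 in Control and at 2864, 3555 and 3846 after DCC-2036. Every treated library lay above every Control library. The log2 fold change was 0.78 (SE 0.14, n = 3 per group, limma adjusted p = 0.003484), and SCAP was the single regulator called. SREBF1, which mainly drives fatty acid genes, stood at 4514, 4505 and 4509 in Control and at 7562, 6783 and 5683 after DCC-2036. SREBF2, which mainly drives sterol genes, stood at 4404, 4261 and 4600 in Control and at 5502, 5897 and 6419 after DCC-2036. Neither overlapped between the groups, but both missed the limit, with log2 fold changes of 0.56 (SE 0.13, limma adjusted p = 0.01013) for SREBF1 and 0.42 (SE 0.10, limma adjusted p = 0.01277) for SREBF2. INSIG1, itself an SREBP target in many cells, stood at 1607, 1331 and 1311 in Control and at 1239, 1025 and 798.3 after DCC-2036. Its groups did not overlap and its log2 difference was -0.49 (SE 0.18, limma adjusted p = 0.05615). INSIG2, which does the same work as INSIG1, overlapped between the groups with a log2 difference of -0.062 (95% interval -0.33 to 0.21).

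In the sterol branch the median log2 fold change was -0.0011. Of its 18 genes, 4 were higher (22.2%) and 1 was lower (5.56%), beside 19.2% and 22.7% of all genes tested. These calls stood at separate steps, in the order of the pathway: MVD, LSS, CYP51A1 and HSD17B7 were the 4 higher genes, and EBP was the lower gene. MVD, the decarboxylase that ends the mevalonate part of the pathway, stood at 2009, 2235 and 2225 in Control and at 3363, 3480 and 2827 after DCC-2036. All treated libraries were above all Control libraries, with a log2 fold change of 0.58 (SE 0.12, limma adjusted p = 0.006925). LSS, the cyclase that makes lanosterol, stood at 1621, 1562 and 1610 in Control and at 3155, 2688 and 2134 after DCC-2036. The Control libraries lay close together and the treated libraries were spread well above them, with a log2 fold change of 0.72 (SE 0.16, limma adjusted p = 0.008057).

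CYP51A1, the demethylase that acts on lanosterol, stood at 2427, 2385 and 2574 in Control and at 4042, 4305 and 4539 after DCC-2036. The treated libraries were all high and close to each other, and the log2 fold change of 0.80 (SE 0.10, limma adjusted p = 0.001062) was the highest of this branch. In GENCODE 29 the exons of CYP51A1 share 2844 bases with a second coding gene model on the same strand, and reads from these cannot be told apart. HSD17B7, a ketoreductase of the later sterol steps, stood at 228.3, 278.3 and 329.8 in Control and at 413.8, 454.5 and 463.1 after DCC-2036. The Control libraries were the more spread and still lay below all treated libraries, with a log2 fold change of 0.68 (SE 0.15, limma adjusted p = 0.009091). The annotation names 2 pseudogenes of HSD17B7 and 3 of CYP51A1, so the counting of both is uncertain.

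EBP, the sterol isomerase that moves an unsaturated bond in the ring, stood at 1176, 1383 and 1511 in Control and at 816.2, 838.8 and 903.9 after DCC-2036. It was low in every treated library, and its mean after DCC-2036 was 62.9% of the Control mean (log2 fold change -0.66, SE 0.13, limma adjusted p = 0.004747).

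**Figure D2:**
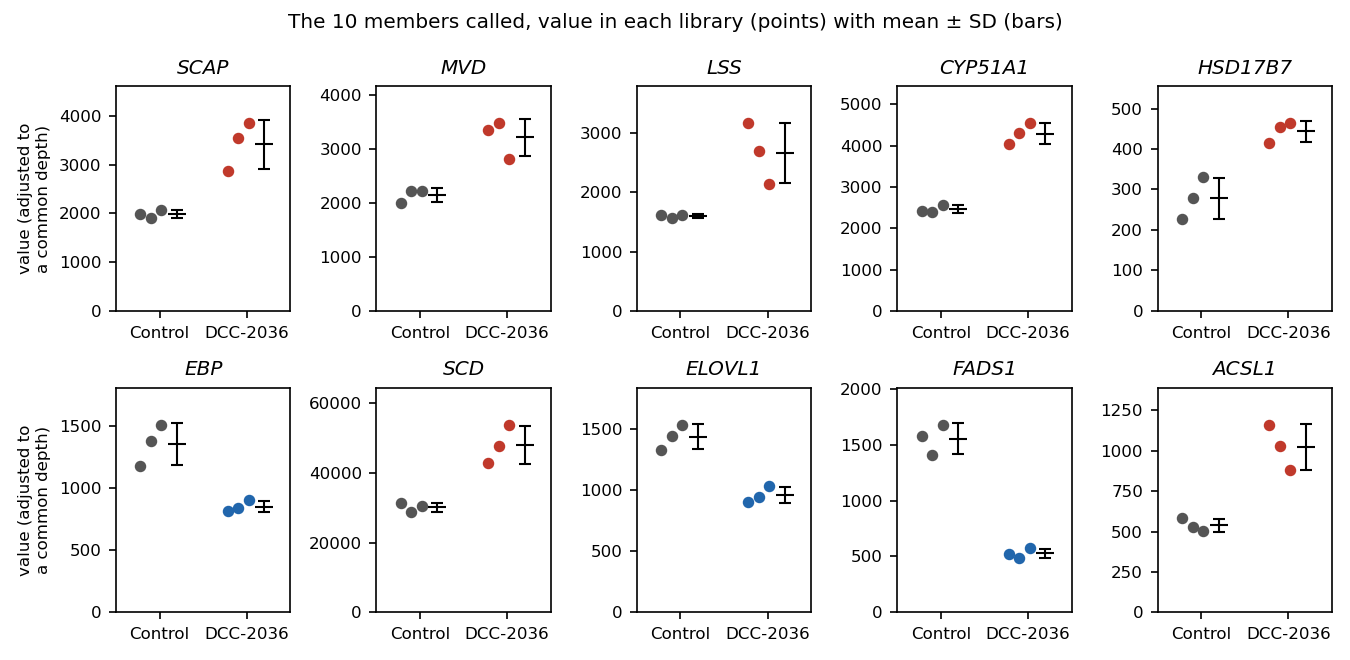
Value in each library, adjusted for depth and on a linear axis from 0, of the 10 called genes, with points for single libraries of Control and DCC-2036 and bars for the mean ± SD (n = 3). In all 10 genes the 3 DCC-2036 libraries lie on the same side of the 3 Control libraries.

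The other 13 genes of the sterol branch were not called. At the start of the pathway, ACAT2, the cytosolic thiolase, stood at 1433, 1588 and 1590 in Control and at 1233, 1103 and 1106 after DCC-2036, without overlap (log2 difference -0.42, SE 0.10, limma adjusted p = 0.01311). Its exons overlap those of SOD2 and TCP1 on the opposite strand, over 1106 and 397 bases, and reads of a library that does not keep the strand cannot be divided between them. HMGCS1, HMG-CoA synthase, showed values of 1622, 1577 and 1615 beside 1793, 1530 and 1480, which overlap (log2 difference -0.0082, 95% interval -0.28 to 0.26). PMVK, phosphomevalonate kinase, also overlapped between the groups, with a log2 difference of -0.32 (95% interval -0.76 to 0.12).

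MVK, mevalonate kinase, differed more among the treated libraries than any other gene of the set. Its values were 524.6, 584.1 and 507.9 in Control and 497.2, 274.0 and 129.6 after DCC-2036. Replicate 1 of DCC-2036 lay just below the lowest Control library and replicate 3 far below it. The log2 difference was -1.04 (SE 0.45, limma adjusted p = 0.08447). Leaving out 1 treated library at a time moved it from -0.54 without replicate 3 to -1.51 without replicate 1, where it was called (limma adjusted p = 0.00773). SQLE, squalene epoxidase, had the same order, with values of 818.0, 792.8 and 786.9 in Control and 765.0, 614.6 and 339.2 after DCC-2036. The log2 difference of SQLE was -0.56 (SE 0.29, limma adjusted p = 0.1351). With 1 library left out it ran from -0.81 to -0.22.

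IDI1, the isomerase that makes dimethylallyl diphosphate, stood at 1452, 1564 and 1494 in Control and at 1260, 1115 and 902.5 after DCC-2036. The groups did not overlap, and the log2 difference of -0.47 (SE 0.14, limma adjusted p = 0.02701) missed the limit. FDPS, which makes farnesyl diphosphate, had a log2 difference of -0.12 (95% interval -0.34 to 0.10). The annotation names 8 pseudogenes of FDPS. FDFT1, squalene synthase, stood at 4066, 4166 and 4238 in Control and at 5237, 5169 and 4741 after DCC-2036, with a log2 difference of 0.28 (SE 0.096, limma adjusted p = 0.0409).

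Among the later enzymes, NSDHL, a decarboxylating dehydrogenase, overlapped between the groups, with values of 601.6, 640.9 and 754.9 beside 992.3, 836.6 and 717.1 (log2 difference 0.34, SE 0.16, limma adjusted p = 0.09977). SC5D, a sterol desaturase, did not overlap, with a log2 difference of 0.17 (95% interval -0.057 to 0.40). TM7SF2, a sterol reductase, overlapped, with values of 357.2, 366.1 and 408.8 beside 311.3, 340.1 and 511.2. Its treated libraries spanned both the lowest and the highest value. DHCR7, the reductase that completes cholesterol, had a log2 difference of -0.062 (95% interval -0.28 to 0.16). STARD4, a carrier of sterols between membranes, stood at 774.9, 724.4 and 651.5 in Control and at 988.2, 982.6 and 875.2 after DCC-2036. These did not overlap, with a log2 difference of 0.41 (SE 0.11, limma adjusted p = 0.02077).

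In the fatty acid branch 2 of 13 genes were higher, ACSL1 and SCD, and 2 were lower, FADS1 and ELOVL1. Each direction made up 15.4% of the branch, beside 19.2% higher and 22.7% lower over all genes tested. The median log2 fold change was -0.055. FADS1, a desaturase of polyunsaturated fatty acids, stood at 1580, 1405 and 1675 in Control and at 524.7, 483.9 and 572.0 after DCC-2036. It was low in all treated libraries and varied little among them, and its mean of 526.9 ± 44.1 (SD, n = 3) was 33.9% of the Control mean of 1553 ± 137. The log2 fold change of -1.56 (SE 0.12, limma adjusted p = 0.0002868) was the largest of the 36 genes in size. FADS2, the desaturase that acts before FADS1 in that route, stood at 300.9, 305.6 and 310.2 in Control and at 230.3, 229.5 and 258.9 after DCC-2036. The groups did not overlap, and the log2 difference of -0.35 (SE 0.099) missed the limit (limma adjusted p = 0.02076). Exons of FADS1 and FADS2 overlap on opposite strands by 142 bases of the FADS1 transcript, and unless the library kept the strand, reads there cannot be divided between them.

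SCD, the desaturase that makes monounsaturated fatty acids, stood at 31261, 28665 and 30386 in Control and at 42908, 47552 and 53677 after DCC-2036. All treated libraries were above all Control libraries, and the mean rose to 160.0% of Control (log2 fold change 0.67, SE 0.12, limma adjusted p = 0.003605). The annotation names 1 pseudogene of SCD, which leaves its counting uncertain too. SCD was also the most abundant of the 34 genes with a GENCODE transcript length. Per kilobase its values were 5830, 5346 and 5667 in Control and 8002, 8868 and 10010 after DCC-2036. FASN, fatty acid synthase, came next with 3614, 3284 and 3658 per kilobase in Control and 3715, 3426 and 3041 after DCC-2036, which overlap. The desaturases thus differed in direction, SCD higher and FADS1 lower.

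Of the 3 elongases, ELOVL1 alone was called. ELOVL1, which lengthens saturated chains, stood at 1328, 1442 and 1532 in Control and at 899.1, 947.0 and 1029 after DCC-2036. It was low in every treated library (log2 fold change -0.58, SE 0.11, limma adjusted p = 0.004585). ELOVL6, which lengthens the product of fatty acid synthase, stood at 959.1, 937.8 and 875.2 in Control and at 689.3, 502.3 and 379.8 after DCC-2036. Its log2 difference was the larger at -0.86, but its treated libraries were more spread and it missed the limit (SE 0.22, limma adjusted p = 0.01386). ELOVL5, which lengthens polyunsaturated chains, stood at 1541, 1440 and 1377 in Control and at 1970, 2126 and 1599 after DCC-2036, without overlap (log2 difference 0.38, SE 0.14, limma adjusted p = 0.04808).

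ACSL1, which activates long-chain fatty acids with coenzyme A, stood at 583.1, 528.5 and 503.3 in Control and at 1159, 1030 and 878.9 after DCC-2036. All treated libraries were above all Control libraries, with a log2 fold change of 0.92 (SE 0.14, limma adjusted p = 0.001937), the highest of the 36 genes. ACSL3, a related synthetase found on lipid droplets, stood at 3059, 3213 and 2821 in Control and at 3743, 4139 and 3658 after DCC-2036. The groups did not overlap, and the log2 difference of 0.34 (SE 0.11) missed the limit (limma adjusted p = 0.02954). ACSS2, which makes acetyl-CoA from acetate, overlapped between the groups, with a log2 difference of 0.23 (95% interval -0.053 to 0.52).

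The enzymes that build the chain itself were not called. ACLY, ATP citrate lyase, stood at 11384, 11282 and 12362 in Control and at 11367, 8840 and 5923 after DCC-2036. Replicate 1 lay within the Control range and replicate 3 far below it (log2 difference -0.47, SE 0.24, limma adjusted p = 0.123). With 1 library left out the log2 difference of ACLY ran from -0.69 to -0.22. FASN stood at 30956, 28128 and 31332 in Control and at 31817, 29347 and 26044 after DCC-2036, which overlap (log2 difference -0.055, 95% interval -0.34 to 0.22). ACACB, the mitochondrial acetyl-CoA carboxylase, stood at 212.5, 191.3 and 209.0 in Control and at 375.2, 292.3 and 226.0 after DCC-2036. These did not overlap, but replicate 3 was close to Control (log2 difference 0.51, SE 0.19, limma adjusted p = 0.05386).

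ACACA, the cytosolic acetyl-CoA carboxylase that commits acetyl-CoA to fatty acids, had overlapping groups for its kept transcript NM_198836.2, with a log2 difference of -0.079 (95% interval -0.39 to 0.23). Its other transcripts in the table differed from it, which was seen after the values had been examined and is given as a description. The values of NM_198837.1 were 4258, 3929 and 3989 in Control and 3681, 3305 and 2412 after DCC-2036. The gap between NM_198836.2 and NM_198837.1 was 211.6, 197.6 and 208.0 in Control and 790.3, 954.6 and 1039 after DCC-2036. The gap was wide in all treated libraries and narrow in all Control libraries, 4.82% of the kept value in Control and 22.8% after DCC-2036. In GENCODE 29 NM_198836.2 has upstream exons that NM_198837.1, which starts farther inside the gene, does not have. Values of transcripts that share exons count many of the same reads. Of 84 pairs of transcripts compared among the 36 genes, 59 had a Control gap of at least 50, and in 5 of these the gap and the other transcript changed apart by over 2-fold, 4 of them in ACACA and 1 in IDI1.

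**Figure D3:**
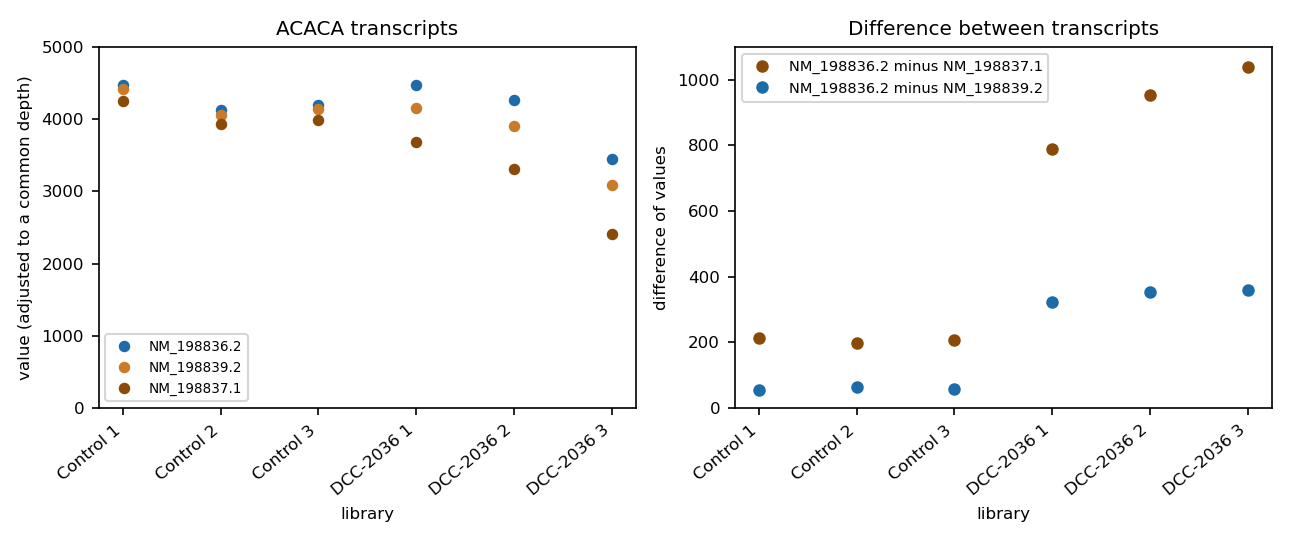
Left, values of 3 ACACA transcripts in each library. Right, the difference between the kept transcript NM_198836.2 and either of the others, which is 198 to 212 in Control and 790 to 1039 in the DCC-2036 libraries for NM_198837.1.

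The branches were then set side by side within each library, as the mean log2 value of their genes relative to the Control mean. For the sterol branch this was -0.061, 0.024 and 0.037 in Control and 0.12, 0.041 and -0.11 after DCC-2036. For the fatty acid branch it was 0.040, -0.044 and 0.0048 in Control and 0.042, -0.057 and -0.19 after DCC-2036. Both branches overlapped between the groups and both were lowest in DCC-2036 replicate 3. The median of all genes tested, on the same scale, was -0.0054, 0.0044 and 0.0076 in Control and -0.027, -0.071 and -0.12 after DCC-2036. It was likewise lowest in DCC-2036 replicate 3. The sterol mean minus the fatty acid mean was -0.10, 0.069 and 0.032 in Control and 0.077, 0.097 and 0.085 after DCC-2036. The treated libraries lay above the highest Control library by a margin smaller than the Control spread. The mean of the 5 regulators was 0.017, -0.030 and 0.012 in Control and 0.27, 0.24 and 0.21 after DCC-2036, higher in every treated library. No test was made on these means, since the genes were chosen by name with results known.

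**Figure D4:**
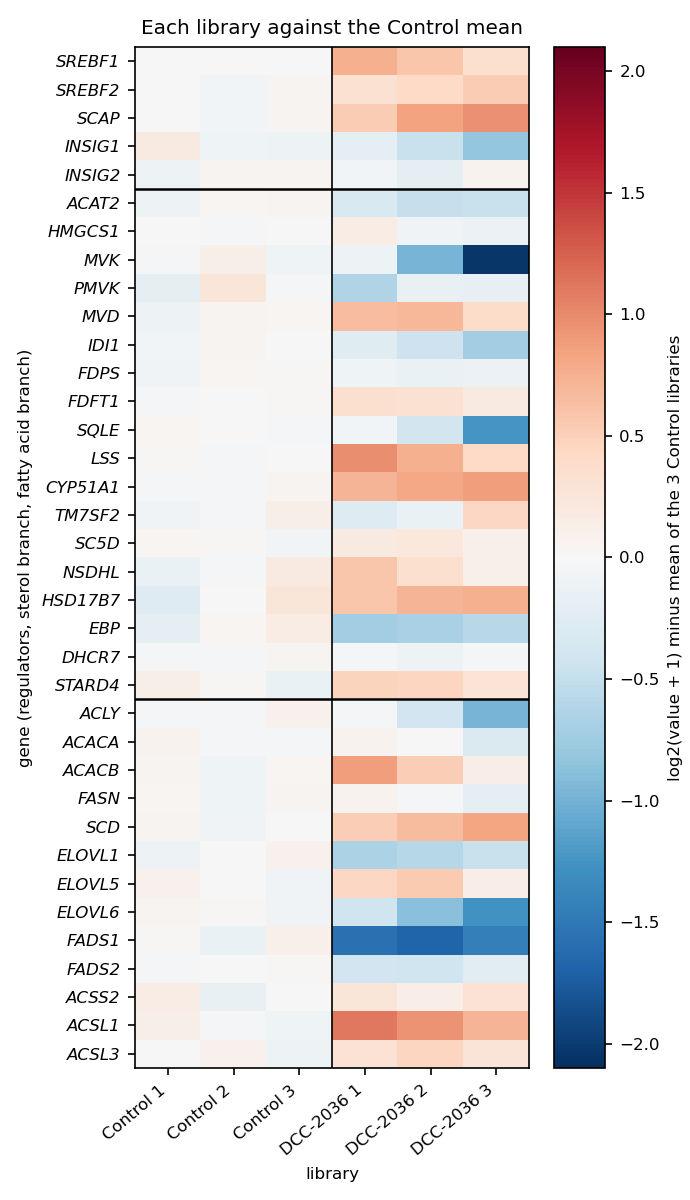
Log2(value + 1) of each of the 36 genes in each library minus the mean of the 3 Control libraries, as colour, with red above and blue below that mean and lines between the regulators, the sterol branch and the fatty acid branch. MVK, SQLE, ACLY and ELOVL6 are darkest blue in DCC-2036 replicate 3, while LSS, ACACB and ACSL1 are reddest in DCC-2036 replicate 1.

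The treated libraries differed among themselves. Across transcripts, the correlation of log2 values was 0.9915 to 0.9927 between Control libraries. Between DCC-2036 libraries it was 0.9885 for replicates 1 and 2, 0.984 for replicates 2 and 3 and 0.9685 for replicates 1 and 3. DCC-2036 replicate 3 was the farthest from the Control mean for 60.4% of all genes tested, but for 15 of the 36 genes here. Replicate 1 was the farthest for 11 of them, LSS and ACSL1 included, and replicate 2 for 10. The SD of log2 values was larger in DCC-2036 than in Control for 27 of the 36 genes, with medians of 0.15 and 0.082. Over all genes tested the medians were 0.23 in DCC-2036 and 0.10 in Control, a wider treated spread there too. Without DCC-2036 replicate 3, 9 of the 10 calls were made, all but HSD17B7, and SREBF1, ACACB, ELOVL5 and FADS2 were called as well. Without DCC-2036 replicate 1, MVD, LSS and HSD17B7 were not called, and SREBF2, ACAT2, MVK, IDI1 and ELOVL6 were. Without Control replicate 1, 6 of the 10 calls were lost, and without Control replicate 2 or 3 or DCC-2036 replicate 2, 8 were lost, with only CYP51A1 and FADS1 left. Over all genes tested, calls fell from 2442 higher and 2887 lower to 968 and 1571 without Control replicate 1. They fell to 942 and 1502 without Control replicate 2 and to 965 and 1534 without Control replicate 3. Without DCC-2036 replicate 2 they fell to 929 and 1650, while more genes were called without DCC-2036 replicate 1 or 3. A loss of calls in such fits was therefore not particular to the 36 genes.

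Only CYP51A1 and FADS1 were called under all 15 alternative fits. Each of the other 8 called genes lost its call under at least 4 fits, most often those with 1 library fewer, and kept its direction under all of them. When library totals were made equal, the median of all genes tested moved from -0.092 to -0.28, and MVD, LSS, HSD17B7 and ACSL1 were then not called while ACAT2 and FADS2 were. In bulk RNA, fewer cells of a kind and less RNA per cell cannot be told apart.

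The promoters of the genes were searched for short sequences, which the choice by name did not use. A promoter here is the window from 250 bases before to 50 bases after the start in RefSeq (GRCh38.p14), which was found for 32 of the 36 genes. ACAT2, FDFT1, SQLE and FASN are the other 4. Windows were searched on both strands for the sterol regulatory element TCACNCCAC, which SREBPs bind, for CCAAT, which NF-Y binds, for the E-box CACGTG and for the GC box GGGCGG, which Sp factors bind. The CCAAT box was in 20 of the 32 windows, 12 of 15 in the sterol branch, 6 of 12 in the fatty acid branch and 2 of 5 regulators, beside 34.6% of 35116 promoters. The GC box was in 28 windows, beside 45.0% of promoters, and the E-box in 5, beside 7.26%. The sterol element in these exact letters was in 1 window, that of SREBF2, beside 1.13% of promoters. These are matches of letters, not measured binding. The 35116 promoters were not matched to these genes in base composition. Windows of the set ran from 46.0% G and C in ACACB to 82.3% in ACACA and ACSL1. Whether the shares differ beyond base composition was not tested.

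The windows of 5 genes are printed 5′ to 3′ on the strand of the gene, with the sterol element and the CCAAT box in capitals, read on either strand. SREBF2 (chr22:41832855-41833154, plus strand) is shown for the sterol element, MVD (chr16:88663042-88663341, minus strand) and LSS (chr21:46228725-46229024, minus strand) as genes that rose, EBP (chrX:48521558-48521857, plus strand) as a gene of the same branch that fell, and FADS1 (chr11:61816954-61817253, minus strand) for the largest fall.
SREBF2: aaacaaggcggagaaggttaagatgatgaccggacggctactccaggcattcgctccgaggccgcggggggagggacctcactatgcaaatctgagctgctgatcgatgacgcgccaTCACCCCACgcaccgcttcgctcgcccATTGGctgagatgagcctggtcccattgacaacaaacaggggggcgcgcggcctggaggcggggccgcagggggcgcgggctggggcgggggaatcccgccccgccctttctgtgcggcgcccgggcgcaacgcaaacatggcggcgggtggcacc
MVD: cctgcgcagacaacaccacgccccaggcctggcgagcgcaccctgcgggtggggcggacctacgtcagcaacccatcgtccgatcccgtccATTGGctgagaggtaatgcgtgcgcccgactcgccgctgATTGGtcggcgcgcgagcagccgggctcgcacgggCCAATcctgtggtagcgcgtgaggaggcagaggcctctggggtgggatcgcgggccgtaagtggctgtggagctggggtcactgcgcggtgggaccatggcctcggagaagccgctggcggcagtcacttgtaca
LSS: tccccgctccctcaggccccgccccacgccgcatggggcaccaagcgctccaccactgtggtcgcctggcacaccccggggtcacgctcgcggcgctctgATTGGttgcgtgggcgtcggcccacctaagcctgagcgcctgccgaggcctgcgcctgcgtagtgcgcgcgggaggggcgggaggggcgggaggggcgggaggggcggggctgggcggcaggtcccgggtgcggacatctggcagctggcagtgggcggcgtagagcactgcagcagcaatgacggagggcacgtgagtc
EBP: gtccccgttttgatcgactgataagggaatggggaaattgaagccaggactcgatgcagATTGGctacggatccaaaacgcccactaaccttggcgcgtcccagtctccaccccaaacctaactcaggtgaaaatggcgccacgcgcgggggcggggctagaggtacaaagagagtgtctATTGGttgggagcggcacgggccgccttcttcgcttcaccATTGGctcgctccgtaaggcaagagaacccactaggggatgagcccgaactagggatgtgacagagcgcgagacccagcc
FADS1: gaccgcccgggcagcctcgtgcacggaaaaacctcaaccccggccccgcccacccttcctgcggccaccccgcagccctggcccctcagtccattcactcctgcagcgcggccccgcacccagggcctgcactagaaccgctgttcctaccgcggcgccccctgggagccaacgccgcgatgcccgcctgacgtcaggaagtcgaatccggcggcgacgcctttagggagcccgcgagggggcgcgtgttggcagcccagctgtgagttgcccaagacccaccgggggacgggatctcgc

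In SREBF2 the sterol element starts at position -133 from the start and CCAAT at -106. MVD and EBP each hold 3 matches to CCAAT, LSS holds 1, and FADS1 holds 0. MVD rose and EBP fell after DCC-2036 with the same number of matches. Among the called genes, CCAAT was found beside both directions of change, and a link between CCAAT and direction was not tested.

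Related genes outside the set were counted by lists of their roles. Each count stands beside 19.2% higher and 22.7% lower over all genes tested, and no test was made on a list. Of 6 other genes of sterol synthesis, 3 were higher and 1 was lower (median log2 fold change 0.40). LBR, a sterol reductase of the nuclear envelope, rose by 0.84 and MSMO1, which removes methyl groups from sterols, by 0.79 on the log2 scale. GGPS1, which diverts farnesyl diphosphate to geranylgeranyl diphosphate, fell by 1.06 on the log2 scale.

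Of 7 genes of SREBP processing and turnover, 4 were higher and 2 were lower (median log2 fold change 0.54). RNF139, a ubiquitin ligase of the endoplasmic reticulum, stood at 734.5, 618.0 and 612.8 in Control and at 1146, 1490 and 1810 after DCC-2036. Its treated libraries were all far above Control, with a log2 fold change of 1.16 (SE 0.19, limma adjusted p = 0.002613). ERLIN1, a membrane protein of the same compartment, rose by 1.15, while its partner ERLIN2 fell by 0.87 on the log2 scale. The proteases that cut the SREBPs in turn differed in direction, with log2 fold changes of 0.54 for MBTPS1 and -0.84 for MBTPS2 (limma adjusted p = 0.004339 and 0.00202).

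Of the 9 tested genes of sterol uptake, storage and export, 2 were higher and 2 were lower (median log2 fold change -0.033). SOAT1, which esterifies cholesterol for storage, rose by 1.19 and NPC2, which moves cholesterol out of lysosomes, by 0.73 on the log2 scale. NR1H3, an oxysterol receptor that induces SREBF1 in liver, stood at 195.4, 238.1 and 243.1 in Control and at 67.2, 38.1 and 40.2 after DCC-2036. It was low in all treated libraries, with a log2 fold change of -2.23 (SE 0.23, limma adjusted p = 0.0006459). Its relative NR1H2 fell by 1.21 on the log2 scale.

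Of the 14 tested genes of other fatty acid steps, HACD3, a dehydratase of chain elongation, was the single call and rose by 1.34 on the log2 scale. In glycerolipid assembly 4 of 8 genes were higher and 3 were lower (median 0.091). GPAM and DGAT1, the acyltransferases at the start and the end of triglyceride synthesis, rose by 1.17 and 1.00, while AGPAT2, which acts between them, fell by 1.03 on the log2 scale. LPIN2 rose by 0.65 and LPIN3 fell by 1.31, though both encode phosphatidate phosphatases, and AGPAT1 fell by 0.46 on the log2 scale. In fatty acid oxidation 3 of 9 genes were higher and 2 were lower (median -0.31). ACADVL rose by 0.81 and ACADM fell by 1.50 on the log2 scale, which are the acyl-CoA dehydrogenases of very long and medium chains. HADHA and HADHB, subunits of one enzyme complex of this route, rose by 0.56 and 0.73, and CPT2, the inner carnitine transferase, fell by 0.80.

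Of the 24 related genes named here, 9 were called in each of the 6 fits with 1 library left out (SOAT1, NR1H2, NR1H3, ERLIN1, ERLIN2, HACD3, GPAM, DGAT1 and ACADM). The other 15 lost the call in at least 1 of these fits, with their direction kept. Leaving out Control replicate 1 lost 13 calls, Control replicate 2, Control replicate 3 or DCC-2036 replicate 2 lost 14 each, DCC-2036 replicate 3 lost 3 and DCC-2036 replicate 1 lost 0. Calls over all genes tested also fell without a Control library or DCC-2036 replicate 2. They went from 2442 higher and 2887 lower to 929 to 968 higher and 1502 to 1650 lower. Among the 15 genes that lost a call, the highest limma adjusted p was 0.014 for RNF139, 0.021 for LBR and 0.0406 for LPIN2.

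**Figure D5:**
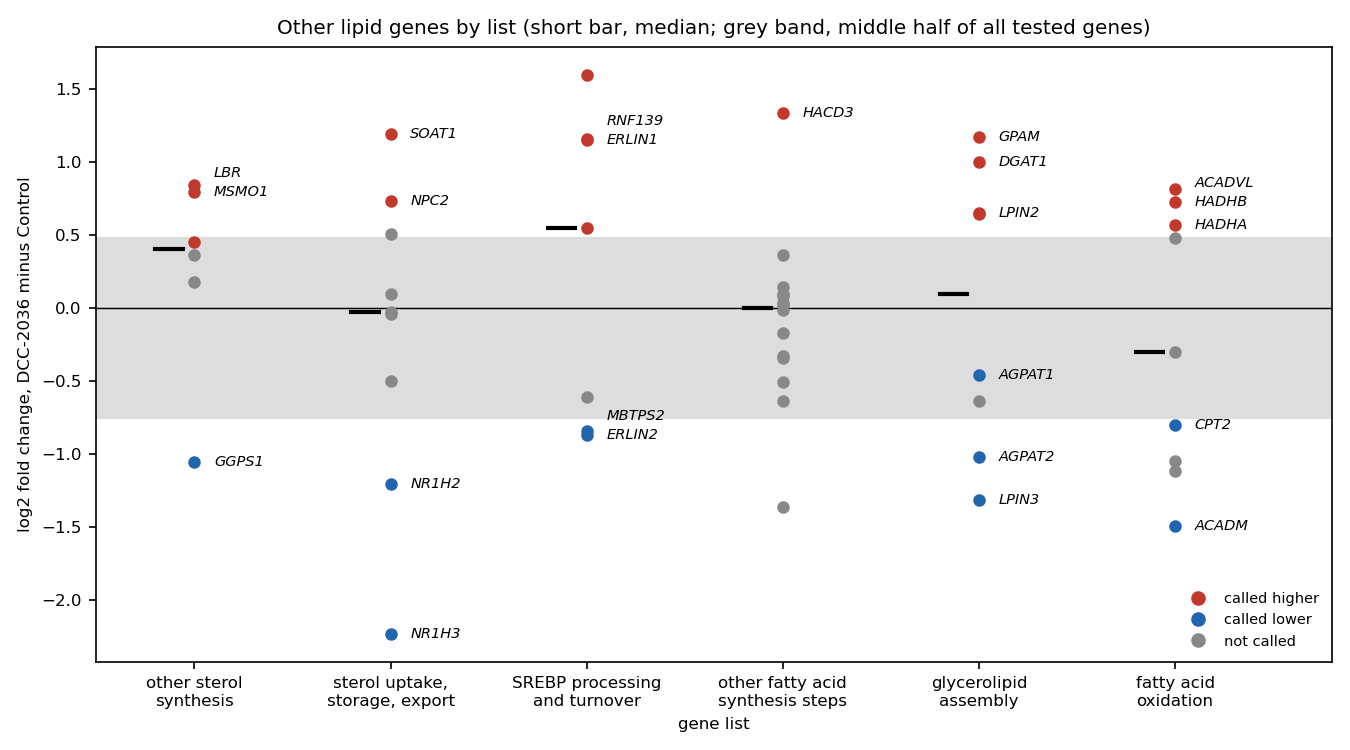
Log2 fold change (DCC-2036 minus Control, log2(value + 1) scale) of each tested gene in 6 lists of related genes, with called genes in red (higher) or blue (lower), a short bar at the median of each list and a grey band for the middle 50% of all genes tested. The medians of the related lists run from -0.31 for fatty acid oxidation to 0.54 for SREBP processing and turnover, and each list with more than 1 called gene holds both directions.

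The label of the cells was checked against markers. EPCAM had values from 4524 to 5961 and KRT8, KRT18 and KRT19 were abundant in all libraries, while CDX1 was listed at 0 in all 6, and CEACAM5 and VIL1 stayed at or under 0.905 and 4.12. CDX2, a transcription factor of the intestinal epithelium, was present throughout, with 316.0, 283.5 and 290.8 in Control and 364.8, 280.3 and 213.1 after DCC-2036. KRT20, a marker of mature colon cells, fell by 1.15 on the log2 scale and KRT8 rose by 0.84. Markers of leukocytes summed to at most 7.51 in any library and those of hepatocytes to at most 5.69. Markers of endothelium summed to at most 40.2, most of it VWF, and those of fibroblasts to 358 to 408 in Control and 425 to 536 after DCC-2036, nearly all of it COL1A1. The part of these in the results was not tested.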

How the data were processed

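The 6 libraries of LoVo RNA, 3 Control and 3 DCC-2036, were grouped by title. The deposited table holds 45006 transcripts with a depth-adjusted signal per library. Totals are 39.0 to 48.0 (in units of 1e6) and the values are not whole reads, so depth is unknown and no count test was run. The aligner and build are not given in the sources used here. Columns with the authors' fold change, p-value and q-value were not used, and the table has 0 other columns of values.

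Of 19223 symbols, 12725 reached 10 in 3 or more libraries and were tested with limma 3.58.1 in R 4.3.3 on log2(value + 1), two-sided, and called at an adjusted p under 0.01 (Benjamini-Hochberg). Fold changes on this scale understate low genes. With 3 against 3 an exact permutation test cannot go below 0.10. The fit was tested on simulated data. Members and lists were chosen with earlier results of these data known. All members are named, and of each related list up to 3 genes per direction with the largest called changes. MBTPS1 and the ACACA transcript pairs were added after their values were seen. Some genes of the related lists enter the counts and medians and are not reported here by name. Tables used Python 3.11.15 with pandas 2.3.3, and lengths came from GENCODE 29. Alternatives were other scalings, filters, pseudocounts, a trend, a replicate block, all transcripts and leaving out each library.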

Additional observations from a re-analysis of the deposited data

How the results depend on the processing

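Of the 36 genes, 29 kept their direction under all 15 alternative fits. The exceptions all had log2 differences near 0 or, for SC5D, of 0.17. Scaled by median of ratios, the log2 difference was 0.010 for INSIG2, 0.065 for HMGCS1, 0.011 for DHCR7 and 0.017 for FASN, and by upper quartile 0.012 for HMGCS1. Scaled to equal totals it was -0.18 for TM7SF2 and -0.018 for SC5D. With 1 library left out it ran from -0.13 to 0.0027 for INSIG2, from -0.092 to 0.046 for HMGCS1, from -0.21 to 0.15 for TM7SF2, from -0.15 to 0.034 for ACACA and from -0.12 to 0.022 for FASN.

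Deviations of same-numbered libraries correlated at 0.081, -0.035 and -0.0030, so no effect shared by replicate number was visible. Whether same-numbered samples were grown or processed together cannot be told from these correlations. With the replicate block, 1202 genes were higher and 1909 lower, and the counts were 0 higher for regulators, 1 higher and 0 lower for the sterol branch and 1 higher and 1 lower for the fatty acid branch.

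The median of all genes tested was -0.28 with equal totals, -0.017 by median of ratios and -0.040 with no filter. With equal totals the medians were 0.23 for regulators, -0.19 for the sterol and -0.25 for the fatty acid branch. The counts were then 1 higher and 2 lower (sterol) and 1 higher and 3 lower (fatty acid). By median of ratios the regulator median was 0.50, with 2 regulators higher and 1 fatty acid gene lower. With no filter, 1 sterol gene was higher, 0 lower, and 1 fatty acid gene lower. By upper quartile, with at least 10 in every library and with all transcripts, 2 regulators were higher, and with a trend 3, with 2 sterol genes lower. With all transcripts, 6379 transcripts were higher and 7250 lower. At an adjusted p under 0.05, 3 regulators were higher, 3 sterol genes lower, and 4 fatty acid genes higher and 4 lower. With a log2 fold change of 1 or more in size as well, 944 of all genes tested were higher and 1930 lower. Of the set, 0 regulators, 0 sterol and 0 fatty acid genes were then higher. Lower were 0 sterol genes and 1 fatty acid gene, FADS1.

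With 1 library left out, 929 to 2717 genes were higher and 1502 to 3444 lower, the regulator median was 0.37 to 0.46 with 0 to 2 higher, the sterol branch had 1 to 3 higher and 0 to 4 lower, and the fatty acid branch 0 to 4 higher and 1 to 3 lower. The causes were not tested. Depth is unknown, so the counting error of low genes could not be given.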
